A study of Mus musculus with 13 samples.

Results

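The 10 genes described here carry transforming growth factor beta (TGF-beta) signalling into a microglial cell. They were taken by name, by matching the Ensembl gene ID of each row of the deposited table, without its version, to the symbols Tgfb1, Nrros, Itgb8, Tgfbr1, Tgfbr2, Smad2, Smad3, Smad4, Smad7 and Ski. All 10 were found among 55487 genes, and all 10 passed the filter on low counts. The RNA came from microglia, which are macrophages that live in the brain, drawn out of digested whole brain of neonatal mice on magnetic beads that bind CD11b. One group of pups came from dams that underwent maternal immune activation (MIA) and the other from control dams (CON). The titles give postnatal day 4 for every library and the series text a span of days 3 to 5. There were 5 retained MIA libraries and 5 retained CON libraries, and the titles mark another 3 libraries, MIA 6, MIA 7 and CON 6, as excluded. What all libraries share is an unperfused brain freed of meninges, digestion with papain and one bead sort. The immune agent, the strain, the sex, the litter, any pooling of pups and the reason for the exclusions are not stated in the labels. Nothing in the labels says that libraries came from separate animals, so p-values measure only the spread between these libraries.

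TGF-beta1 is secreted in a latent form, bound inside its own propeptide, and has to be held on a cell surface and freed before it can act. The freed ligand brings a type II and a type I receptor together, the type I receptor phosphorylates Smad2 and Smad3, and these enter the nucleus with Smad4, while Smad7 and Ski restrain the signal. In mice, microglia depend on this pathway for their mature gene programme, and Nrros, a protein that anchors latent TGF-beta1 on microglia, is needed for it.

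Total counts ran from 25387055 to 35593541 per library. The 17 microglial identity genes summed to 22572 to 28942 CPM, the counts scaled for library size and composition, in the 5 retained MIA libraries and 34823 to 43896 CPM in the 5 retained CON libraries, with all 17 detected in all 13 libraries. The excluded libraries ran the other way, with 33270 CPM in MIA 6, 33719 CPM in MIA 7 and 30503 CPM in CON 6. RNA of other cells was present: 10 endothelial genes summed to 2556 to 4319 CPM in retained MIA libraries and 870 to 1411 CPM in retained CON libraries, but to 2164 CPM in MIA 6, 2368 CPM in MIA 7 and 2698 CPM in CON 6. The 12 neuronal genes summed to 110 to 163 CPM in retained MIA libraries and 59.0 to 78.6 CPM in retained CON libraries, with 79.6 CPM in MIA 6, 68.9 CPM in MIA 7 and 74.0 CPM in CON 6. The 6 choroid plexus and ependymal genes summed to 758 to 12815 CPM in retained MIA libraries and 33.3 to 15765 CPM in retained CON libraries. The 8 genes of border-associated macrophages summed to 894 to 2374 CPM in retained MIA libraries and 1421 to 2300 CPM in retained CON libraries. For 11 mural and fibroblast genes the sums were 903 to 1288 CPM in retained MIA libraries and 651 to 1028 CPM in retained CON libraries. Excluded libraries had 1536 to 1630 CPM of these. Lymphocyte genes summed to at most 2.96 CPM in any library. Monocyte and neutrophil genes summed to 33.6 to 52.0 CPM in retained MIA libraries and 52.3 to 120 CPM in retained CON libraries. They reached 72.8 CPM in MIA 6, 65.8 CPM in MIA 7 and 47.6 CPM in CON 6. Neural progenitor genes summed to 106 to 147 CPM in retained MIA and 68.0 to 88.3 CPM in retained CON libraries. For astrocyte genes these ranges were 452 to 785 and 302 to 950 CPM, and for oligodendrocyte lineage genes 150 to 244 and 158 to 213 CPM. CON 1 and CON 2 stood apart from the other 11 libraries. Their 12 dissociation genes, which are switched on while tissue is being digested, summed to 2458 CPM in CON 1 and 2248 CPM in CON 2, against 5853 to 9666 CPM in the others. Their 6 erythroid genes summed to 61.4 CPM in CON 1 and 80.3 CPM in CON 2, against 1162 to 3049 CPM in the others. Where a named gene loses its call without CON 1 and CON 2, its value without them is given.

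Levels of different genes were compared as CPM per kilobase of exon. On that scale Nrros was the most abundant member, at 68.7 ± 5.65 in MIA libraries and 88.3 ± 11.4 in CON libraries (SD, n = 5 each, here and below). The type II receptor gene Tgfbr2 followed with 57.8 ± 4.00 in MIA libraries and 60.1 ± 6.75 in CON libraries, and the type I receptor gene Tgfbr1 with 50.8 ± 4.05 in MIA libraries and 70.9 ± 16.9 in CON libraries. Tgfbr1 was thus below Tgfbr2 in the MIA mean and above it in the CON mean, where the spread of Tgfbr1 spanned the difference. The signal-carrying Smad3 stood next at 15.1 ± 0.398 in MIA libraries and 13.3 ± 1.15 in CON libraries, then Ski at 7.72 ± 1.53 in MIA libraries and 8.51 ± 0.884 in CON libraries. Smad2 followed at 4.76 ± 0.414 in MIA libraries and 4.60 ± 0.592 in CON libraries. Smad4 stood at 1.99 ± 0.245 in MIA libraries and 1.55 ± 0.508 in CON libraries and Tgfb1 at 1.33 ± 0.251 in MIA libraries and 1.26 ± 0.423 in CON libraries. Smad7, at 0.779 ± 0.217 in MIA libraries and 0.604 ± 0.168 in CON libraries, and Itgb8, at 0.360 ± 0.117 in MIA libraries and 0.439 ± 0.349 in CON libraries, were the lowest. In CON libraries Smad4 and Tgfb1 lay within their SDs of each other, and so did Smad7 and Itgb8. The receptors and the ligand anchor were thus far more abundant in these libraries than the ligand gene and the activating integrin subunit gene.

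Of the 10 members, 2 were called between MIA and CON libraries at an edgeR adjusted p under 0.05, and both, Nrros and Tgfbr1, were lower in MIA. Over all 15511 genes tested 10.3% were called, 4.58% lower and 5.75% higher in MIA libraries. The members' share of calls came from 2 genes, too few to set apart from that background. The median log2 fold change over all genes was -0.01. The bulk libraries cannot tell fewer microglia in a sample from less RNA of a gene per microglial cell.

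**Figure D1:**
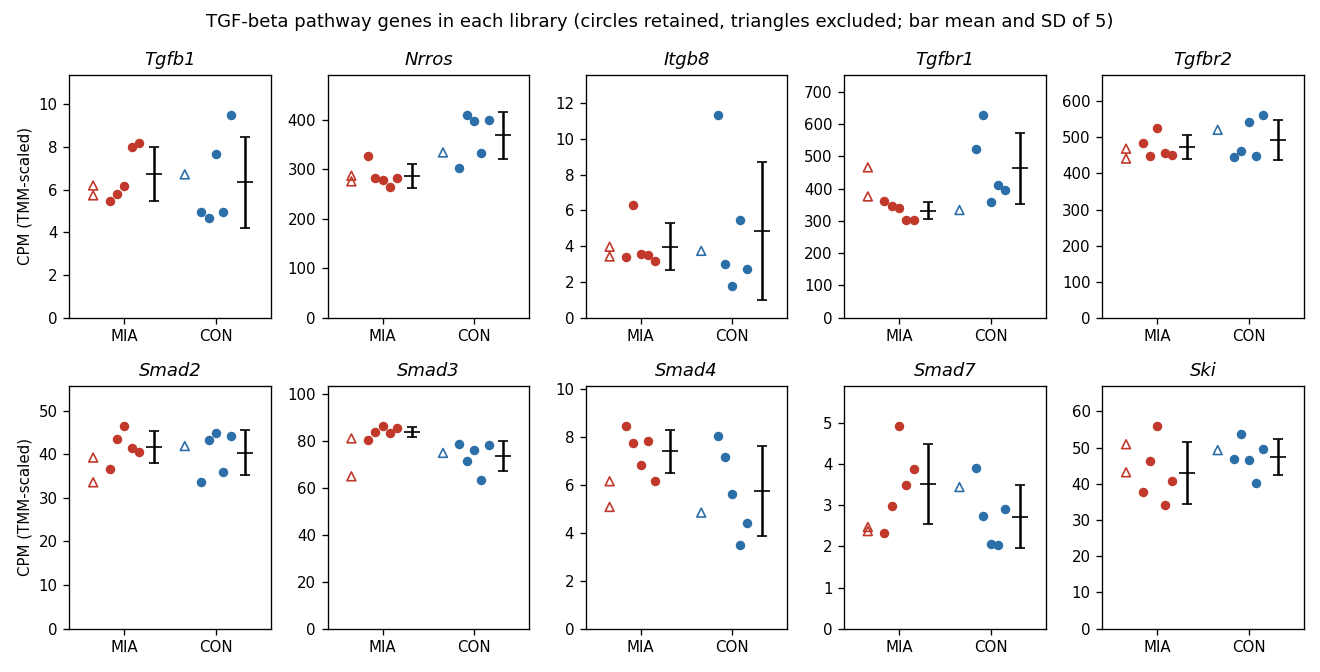
Level of each of the 10 genes in CPM (vertical axis, from 0) in every library, with MIA left of CON. Filled circles are the 5 retained libraries of a group, open triangles the excluded ones, and the bar gives the mean and SD of the retained 5. Nrros and Tgfbr1 are lower in MIA libraries with some overlap, and Smad3 is higher in MIA libraries with none among the retained libraries.

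Tgfb1, the ligand gene, was weakly expressed in all libraries. It had 5.47, 5.82, 6.16, 8.0 and 8.16 CPM in MIA 1 to 5, against 4.97, 4.66, 7.67, 4.96 and 9.48 CPM in CON 1 to 5. The excluded libraries gave 5.73 CPM in MIA 6, 6.19 CPM in MIA 7 and 6.71 CPM in CON 6. The groups overlapped, and CON 5 was the highest and CON 2 the lowest of the 13. The log2 fold change was 0.08 ± 0.24 (SE; 95% interval -0.43 to 0.59; edgeR adjusted p = 0.888), and it turned to -0.14 without CON 1 and CON 2. A change of the size that Nrros showed lies inside that interval, so these data bound the ligand gene only loosely.

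Nrros encodes the surface protein, also called LRRC33, that ties latent TGF-beta1 to microglia and other myeloid cells. It had 327, 283, 278, 265 and 282 CPM in MIA 1 to 5, against 303, 409, 398, 333 and 401 CPM in CON 1 to 5. The excluded libraries had 287 CPM in MIA 6, 276 CPM in MIA 7 and 334 CPM in CON 6. Only MIA 1 reached into the CON range, where it lay above CON 1, and the excluded libraries fell on the side of their labels. Nrros averaged 287 ± 23.6 CPM in MIA libraries and 369 ± 47.7 CPM in CON libraries and was lower by a log2 fold change of -0.36 ± 0.10 (SE; 95% interval -0.57 to -0.16; edgeR adjusted p = 0.0275). Its call was kept with all 13 libraries, at -0.35 and an edgeR adjusted p of 0.0299, where 4.22% of genes were called. It was also kept without CON 1 and CON 2, at -0.41 and an edgeR adjusted p of 0.00916 with 12.2% of genes called. CON 1 was the lowest CON library for Nrros. Without CON 1 alone the value was -0.43 (edgeR adjusted p = 0.00358), and without CON 2 alone -0.32 (edgeR adjusted p = 0.0712). With the excluded libraries added and CON 1 and CON 2 left out, only 0.561% of genes passed and Nrros was among them (-0.36; edgeR adjusted p = 0.0461). The call was lost when any one of CON 2, CON 3, CON 5, MIA 2, MIA 3, MIA 4 or MIA 5 was left out, with log2 fold changes of -0.36 to -0.32 and adjusted p-values of up to 0.082 from edgeR.

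Itgb8 encodes the beta subunit of the integrin alpha-v beta-8, which pulls latent TGF-beta open. MIA 1 to 5 had 3.38, 6.28, 3.57, 3.49 and 3.18 CPM, against 11.3, 3.02, 1.75, 5.45 and 2.75 CPM in CON 1 to 5. The excluded libraries had 3.97 CPM in MIA 6, 3.43 CPM in MIA 7 and 3.74 CPM in CON 6. The groups overlapped throughout, and the highest library of all was CON 1. Astrocyte genes also had their highest sum in CON 1, at 950 CPM, but summed to only 389 CPM in CON 4, which had 5.45 CPM of Itgb8. The part of other cells' RNA in the Itgb8 values was not tested. The log2 fold change was -0.29 ± 0.44 (SE; 95% interval -1.25 to 0.68; edgeR adjusted p = 0.774), and it turned to 0.29 without CON 1 and to 0.23 under scaling to microglial genes.

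Tgfbr1 encodes the type I receptor, the kinase that phosphorylates Smad2 and Smad3. MIA 1 to 5 had 362, 348, 341, 304 and 304 CPM, against 523, 627, 358, 412 and 397 CPM in CON 1 to 5. The excluded libraries had 376 CPM in MIA 6, 466 CPM in MIA 7 and 334 CPM in CON 6. CON 2 and CON 1 were the 2 highest of the 13 libraries, MIA 1 lay just above CON 3, and the excluded libraries ran against the direction of the retained ones. Tgfbr1 averaged 332 ± 26.5 CPM in MIA libraries and 463 ± 110 CPM in CON libraries and was lower by a log2 fold change of -0.48 ± 0.14 (SE; 95% interval -0.78 to -0.18; edgeR adjusted p = 0.0411). Without CON 1 and CON 2 the value was -0.24 and the call was lost (edgeR adjusted p = 0.0793). With all 13 libraries it was -0.31 (edgeR adjusted p = 0.242), and with all 13 less CON 1 and CON 2 it was -0.07 (edgeR adjusted p = 0.752). The call also missed the threshold under total-count scaling (-0.43; edgeR adjusted p = 0.0827) and in limma-voom (-0.45; adjusted p = 0.0528). Leaving out CON 1, CON 2 or any one of MIA 1 to MIA 5 also ended the call, with log2 fold changes of -0.52 to -0.35 and edgeR adjusted p of 0.055 to 0.112. CON 1 and CON 2, without which the log2 fold change was -0.24 in place of -0.48, are the libraries low in dissociation and erythroid genes, and the part of these genes in the result was not tested.

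The 250 bases before the start of the genes for these 2 called members are shown because they are the only members whose level passed the test. They come from RefSeq, build GRCm38.p6, on the gene's own strand, with the Smad box AGAC or its reverse complement GTCT in capitals, the short sequence bound by Smad3 and Smad4. Capitals would also mark GAGGAA or TTCCTC, the core bound by PU.1, the myeloid transcription factor. The Nrros window is chr16:32165595-32165844 on the minus strand and the Tgfbr1 window chr4:47352972-47353221 on the plus strand.
Nrros: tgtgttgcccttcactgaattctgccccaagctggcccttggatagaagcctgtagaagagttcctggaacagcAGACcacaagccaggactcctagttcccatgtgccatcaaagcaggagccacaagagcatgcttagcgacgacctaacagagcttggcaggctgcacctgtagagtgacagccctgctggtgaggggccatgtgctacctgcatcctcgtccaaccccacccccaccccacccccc
Tgfbr1: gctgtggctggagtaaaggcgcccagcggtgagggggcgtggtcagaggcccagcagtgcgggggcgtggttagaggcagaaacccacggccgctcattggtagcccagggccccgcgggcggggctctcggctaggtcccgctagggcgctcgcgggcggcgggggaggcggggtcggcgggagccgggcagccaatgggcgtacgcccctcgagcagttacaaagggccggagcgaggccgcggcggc
The Nrros window held 1 Smad box and no PU.1 core, and its GC content was 58.4%. The Tgfbr1 window held neither sequence, with a GC content of 74.8%. RefSeq lists a second start for Tgfbr1, whose window held 2 Smad boxes and 1 PU.1 core. Among 32851 windows of the same length 82.9% held the Smad box and 23.3% the PU.1 core, so a match is common, and both are descriptions of letters and not of binding.

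Tgfbr2 encodes the type II receptor, which binds the freed ligand and switches on the type I receptor. MIA 1 to 5 had 484, 448, 526, 456 and 451 CPM, against 446, 464, 542, 447 and 561 CPM in CON 1 to 5. The excluded libraries had 441 CPM in MIA 6, 469 CPM in MIA 7 and 521 CPM in CON 6. The groups overlapped over nearly their whole range. The log2 fold change was -0.06 ± 0.09 (SE; 95% interval -0.24 to 0.13; edgeR adjusted p = 0.767), and it was 0.01 under scaling to total counts and 0.51 under scaling to microglial genes. The lower end of that interval lies above the estimate for Nrros, which is -0.36. The interval of Nrros, -0.57 to -0.16, overlaps that of Tgfbr2, and no test compared the 2 genes.

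Smad3, the receptor-activated Smad that was the most abundant Smad among the members, had 80.6, 83.7, 86.4, 83.5 and 85.4 CPM in MIA 1 to 5, against 78.7, 71.5, 76.1, 63.5 and 78.4 CPM in CON 1 to 5. The excluded libraries had 65.0 CPM in MIA 6, 81.1 CPM in MIA 7 and 74.9 CPM in CON 6. All 5 retained MIA libraries lay above all 5 retained CON libraries, while MIA 6 lay among the CON libraries. The groups did not overlap for 9.95% of all genes tested and for 1 of the 10 members. Smad3 averaged 83.9 ± 2.21 CPM in MIA libraries and 73.6 ± 6.37 CPM in CON libraries, a log2 fold change of 0.19 ± 0.07 (SE; 95% interval 0.03 to 0.35) that missed the threshold (edgeR adjusted p = 0.134). Under scaling to total counts, where 9.88% of genes passed, the value was 0.25 and passed (edgeR adjusted p = 0.0456).

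The other Smads and Ski did not pass the test. Smad2, which is activated beside Smad3, averaged 41.8 ± 3.64 CPM in MIA libraries and 40.4 ± 5.20 CPM in CON libraries, a log2 fold change of 0.05 ± 0.10 (SE; adjusted p = 0.846 from edgeR) that was -0.02 with all 13 libraries. Smad4, the shared partner of the activated Smads, averaged 7.40 ± 0.908 CPM in MIA libraries and 5.75 ± 1.89 CPM in CON libraries, a log2 fold change of 0.37 ± 0.23 (SE; adjusted p = 0.394 from edgeR). Both genes had overlapping groups. Smad7, the inhibitory Smad that the pathway itself switches on, averaged 3.52 ± 0.982 CPM in MIA libraries and 2.73 ± 0.761 CPM in CON libraries, a log2 fold change of 0.37 ± 0.29 (SE; adjusted p = 0.504 from edgeR). Smad7 rested on 61 to 145 counts per library, and its 95% interval of -0.25 to 0.99 allows changes in either direction. Ski, a nuclear corepressor of the Smads, averaged 43.0 ± 8.51 CPM in MIA libraries and 47.3 ± 4.92 CPM in CON libraries, a log2 fold change of -0.14 ± 0.13 (SE; adjusted p = 0.589 from edgeR) that was 0.42 under scaling to microglial genes.

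**Figure D2:**
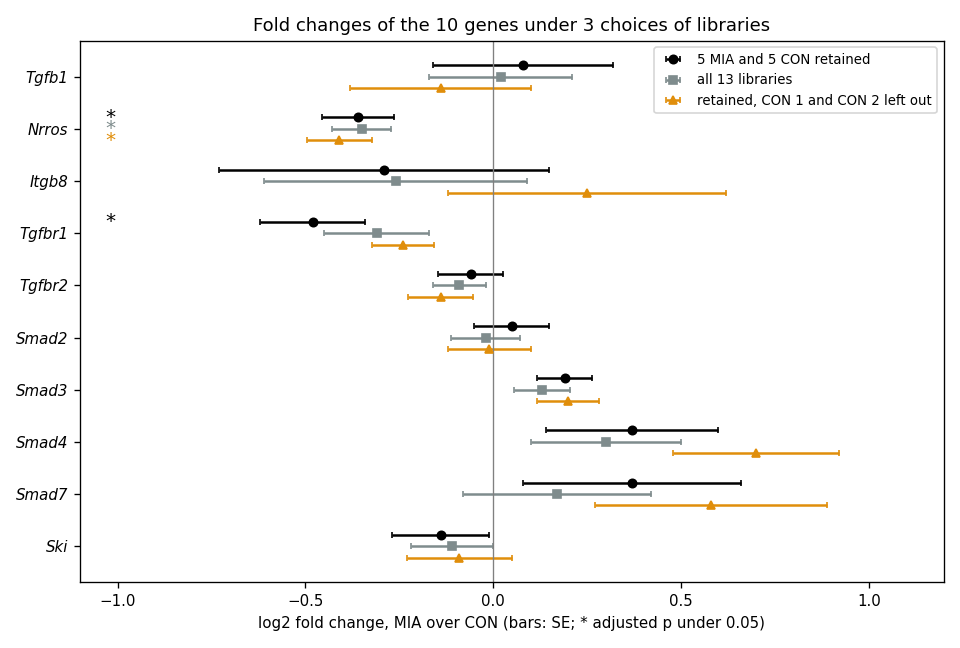
Log2 fold change of MIA over CON (horizontal axis) of the 10 genes, with the SE as bars, for the 5 against 5 retained libraries, all 13 libraries, and the retained libraries without CON 1 and CON 2. A star marks an edgeR adjusted p under 0.05. Nrros lies at -0.36, -0.35 and -0.41, while Tgfbr1 moves from -0.48 to -0.31 and -0.24, and Tgfb1 and Itgb8 change sign without CON 1 and CON 2.

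In the retained libraries 16 of the 17 microglial identity genes were lower in MIA and none was higher, with a median log2 fold change of -0.57, and all 10 endothelial genes were higher with a median of 1.41. With all 13 libraries 5 microglial genes were lower and 9 endothelial genes higher, and with CON 1 and CON 2 left out of these 0 and 1, where 15 and 10 had an unadjusted edgeR p under 0.05. The fold changes of Nrros, at -0.36, and Tgfbr1, at -0.48, were smaller in size than that microglial median. When libraries were scaled to the microglial genes instead, the median of all genes moved to 0.56 and 53.5% of all genes were called. On that scale Nrros was at 0.21 (edgeR adjusted p = 0.0961) and Tgfbr1 at 0.09 (edgeR adjusted p = 0.527), neither lower in MIA. Tgfbr2, Smad2, Smad3, Smad4, Smad7 and Ski were then called higher, with log2 fold changes of 0.42 to 0.95 around the shifted median of 0.56. The lower direction of the 2 calls was thus seen relative to all RNA in the library and not relative to the sum of the 17 identity genes. Of these 17 genes 16 were themselves called lower, and whether they changed within a microglial cell was not tested. The part of the endothelial and other RNA in the 2 calls was not tested either.

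**Figure D3:**
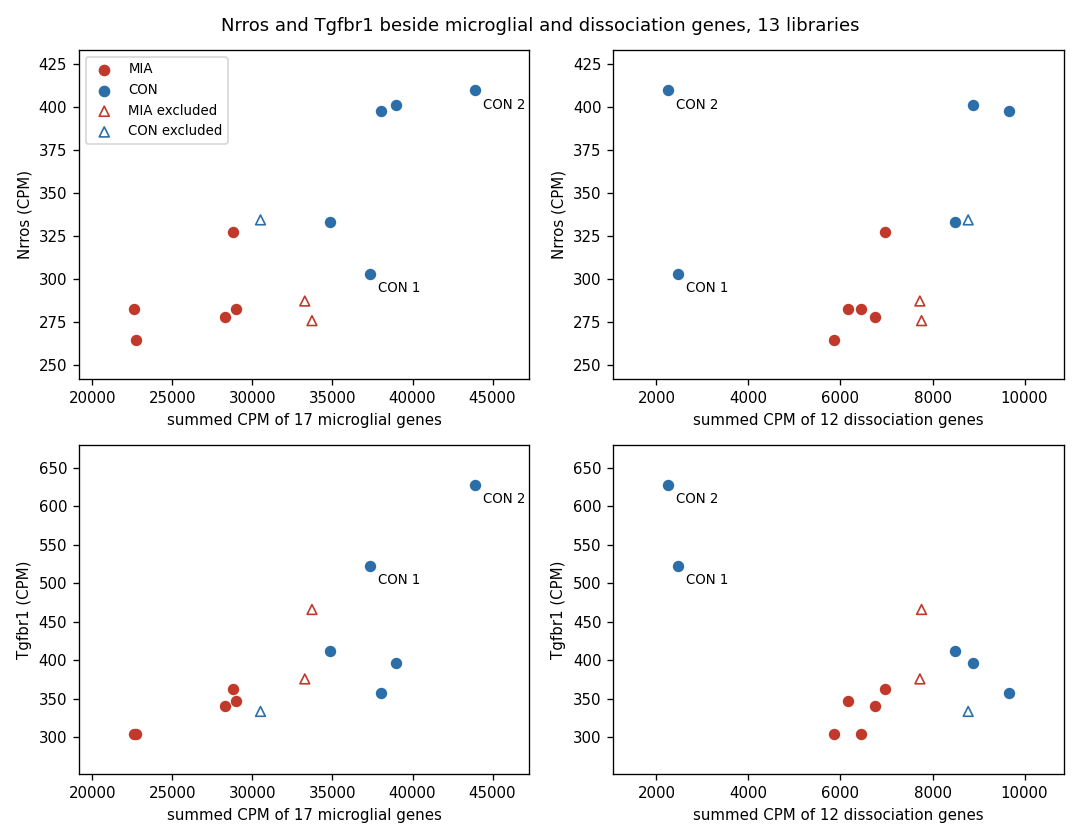
Nrros (upper row) and Tgfbr1 (lower row) in CPM against the summed CPM of 17 microglial genes (left) and of 12 dissociation genes (right), 1 point per library, with MIA and CON in different colours and excluded libraries as triangles. CON 1 and CON 2, at 2458 and 2248 CPM of dissociation genes, hold the 2 highest values of Tgfbr1 but not of Nrros.

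A ratio of 2 members within a library does not depend on how libraries are scaled. The log2 ratio of Tgfbr2 to Tgfbr1 counts averaged 0.51 ± 0.11 in MIA libraries and 0.11 ± 0.45 in CON libraries. It was negative in CON 1 and CON 2, at -0.23 and -0.44, and positive in the other 11 libraries. The difference of 0.40 did not pass (2-sided exact permutation p = 0.111, adjusted over 4 ratios 0.397) and was 0.11 without CON 1 and CON 2. The log2 ratio of Smad2 to Smad3 averaged -1.01 ± 0.10 in MIA libraries and -0.87 ± 0.20 in CON libraries (exact permutation p = 0.198, adjusted 0.397). The other 4 of the CON libraries lay between -0.83 and -0.72 and above every MIA library, and CON 1 lay at -1.22, below them all. The difference of -0.14 was -0.23 without CON 1. The ratio of Smad7 to Smad3 averaged -4.59 ± 0.36 in MIA libraries and -4.76 ± 0.32 in CON libraries (exact permutation p = 0.460, adjusted 0.563), and its difference of 0.17 was 0.05 without MIA 3, 0.07 without CON 3, 0.28 without CON 1 and 0.29 without MIA 1. The ratio of Nrros to Itgb8 averaged 6.19 ± 0.43 in MIA libraries and 6.53 ± 1.21 in CON libraries (exact permutation p = 0.563, adjusted 0.563). That difference of -0.34 ranged from -0.79 without CON 1 to -0.02 without CON 3, and was -0.21 without CON 2, -0.18 without CON 5 and -0.16 without MIA 2. The smallest p that 5 against 5 libraries allow is 0.00794.

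**Figure D4:**
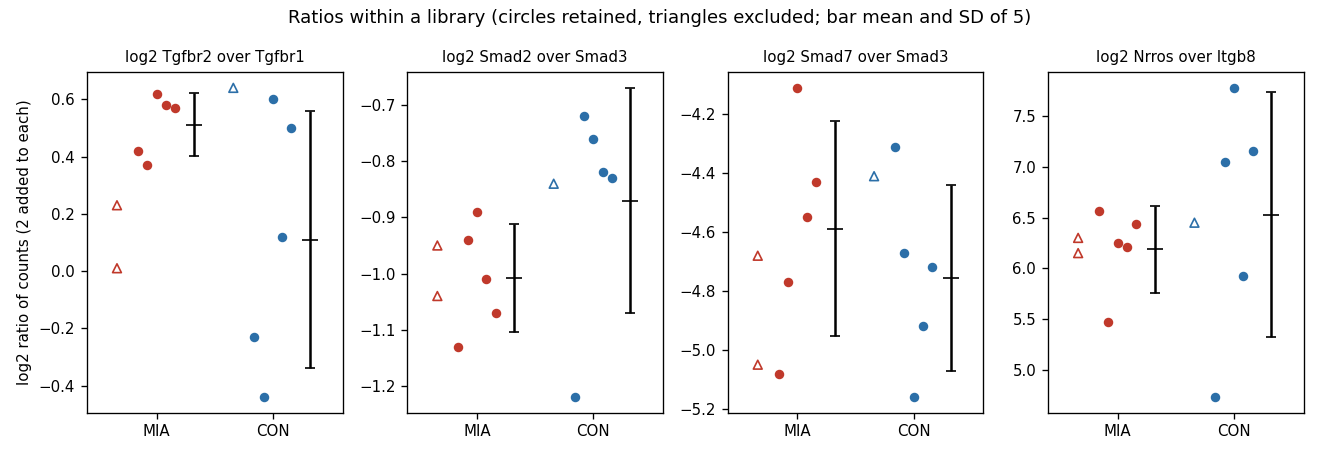
Log2 ratio of counts of 2 genes in the same library (vertical axis), with MIA left of CON, circles for retained and triangles for excluded libraries, and the bar for the mean and SD of the retained 5. Tgfbr2 over Tgfbr1 spans 0.37 to 0.62 in MIA libraries and -0.44 to 0.60 in CON libraries.

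The genes whose levels followed those of a member most closely were found among 8523 genes with a mean of at least 10 CPM, by Pearson correlation of log2 CPM over the 13 libraries, which share the same scaling and marker differences. Tgfbr1 was followed by Serinc3 (r = 0.96), Icosl, the ligand of a T cell costimulator (r = 0.94), and Adam17, a protease that sheds surface proteins (r = 0.94). All 3 were lower in MIA libraries, Serinc3 by a log2 fold change of -0.46, Icosl by -0.50 and Adam17 by -0.30 (edgeR adjusted p = 0.0154, 0.0189 and 0.0373). Each lost its call with all 13 libraries, like Tgfbr1, at -0.26, -0.35 and -0.16, and without CON 1 and CON 2 Icosl (-0.32; edgeR adjusted p = 0.0667) and Adam17 (-0.21; edgeR adjusted p = 0.0733) did too. The call of Serinc3 was also lost without MIA 5, that of Icosl without MIA 4 or MIA 5, and that of Adam17 without any one of 7 libraries, CON 2, CON 4 and MIA 1 to MIA 5 (adjusted p-values from edgeR of up to 0.0552, 0.0526 and 0.115). Tgfb1 was followed by Tdrd7, Gspt1 and Rad23b (r = 0.89, 0.85 and 0.84) and Tgfbr2 by Ankrd13a, Zbtb17 and Nelfb (r = 0.82, 0.80 and 0.79), of which none passed the test between groups. These correlations are descriptions over 13 libraries and carry no test.

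Around the members, 14 further genes for TGF-beta ligands, latency and activation were examined, of which 13 were tested. Of these, 2 were higher and 2 lower in MIA, with a median log2 fold change of 0.12. For this list and those below, 5.75% of all genes tested were called higher and 4.58% lower. The share in either direction was 4.22% with all 13 libraries and 0.561% with these less CON 1 and CON 2. Ltbp4, a matrix protein that binds latent TGF-beta, averaged 88.4 ± 26.5 CPM in MIA libraries and 46.1 ± 10.8 CPM in CON libraries, a log2 fold change of 0.94 (edgeR adjusted p = 0.0137). Lrrc32, the relative of Nrros that anchors latent TGF-beta on endothelium, platelets and regulatory T cells, averaged 22.1 ± 3.25 CPM in MIA libraries and 13.4 ± 3.13 CPM in CON libraries, a log2 fold change of 0.72 (edgeR adjusted p = 0.0136). Without CON 1 and CON 2 neither Ltbp4 (0.79; edgeR adjusted p = 0.0756) nor Lrrc32 (0.60; edgeR adjusted p = 0.0525) passed. In the retained libraries Lrrc32 had the direction of the endothelial genes and Nrros that of the microglial ones. The integrin subunit genes Itgb3 and Itgb5 were lower in MIA, with log2 fold changes of -0.65 and -0.44 (edgeR adjusted p = 0.0298 and 0.0352). Both lost their calls when 1 of several libraries was left out, Itgb3 for any one of CON 2, CON 3, CON 5, MIA 3, MIA 4 and MIA 5 and Itgb5 for any one of CON 3, CON 5, MIA 1, MIA 4 and MIA 5, with adjusted p-values of up to 0.0955 and 0.11 from edgeR. Itgb1, the most abundant of the list, did not pass, at 531 ± 59.2 CPM in MIA libraries and 496 ± 76.2 CPM in CON libraries. The count of higher genes was 4 without CON 1, and that of lower genes was 0 without CON 3, CON 5, MIA 4 or MIA 5 and 1 without CON 2, MIA 1 or MIA 3. With all 13 libraries edgeR called none of the list, and 4 of its genes had an unadjusted p under 0.05.

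Of 11 receptors and coreceptors of the family, all tested, 4 were higher in MIA and none was lower, with a median log2 fold change of 0.37. Eng, the endothelial coreceptor endoglin, averaged 374 ± 76.5 CPM in MIA libraries and 197 ± 22.1 CPM in CON libraries, a log2 fold change of 0.92 (edgeR adjusted p = 0.0008). Acvrl1, the endothelial type I receptor ALK1, was higher by 0.73 and Bambi, a decoy receptor without a kinase, by 1.24 (edgeR adjusted p = 0.00126 and 0.00104). Tgfbr3, the coreceptor betaglycan, was higher by 0.79 (edgeR adjusted p = 0.0304) but lost its call when any one of CON 2, CON 3, CON 4, MIA 1, MIA 3, MIA 4 or MIA 5 was left out, with adjusted p-values of up to 0.0842 from edgeR. Eng and Acvrl1 are typical of endothelium, whose 10 marker genes separated the retained MIA from the retained CON libraries but not the excluded ones, as given above, and the part of endothelial RNA in these 4 calls was not tested. The count was 3 with all 13 libraries and 0 in edgeR with CON 1 and CON 2 left out of these, where 7 genes had an unadjusted p under 0.05.

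Of 18 further Smads and Smad regulators, 2 were higher and none lower, with a median log2 fold change of 0.17. Over all genes 5.75% were higher, and 2 calls are too few to set apart from that share. Smad5, a Smad of the bone morphogenetic protein branch, averaged 46.3 ± 4.15 CPM in MIA libraries and 34.4 ± 1.05 CPM in CON libraries, a log2 fold change of 0.43 (edgeR adjusted p = 0.00491). Ppm1a, a phosphatase that acts on activated Smads, was higher by 0.60 (edgeR adjusted p = 0.0294) and lost its call when any one of CON 2, CON 3, CON 5, MIA 1, MIA 2 or MIA 5 was left out, with adjusted p-values of up to 0.0971 from edgeR. It also lost its call with all 13 libraries (0.39; edgeR adjusted p = 0.207), without CON 1 and CON 2 (0.59; edgeR adjusted p = 0.0663) and without a filter (0.59; edgeR adjusted p = 0.0554). With all 13 libraries less CON 1 and CON 2 none of the list passed in edgeR, where 2 had an unadjusted p under 0.05, and Smad5 was at 0.36 (edgeR adjusted p = 0.0922). The count was 3 without CON 1. The abundant Usp4, a deubiquitinase of the type I receptor, was at 0.00, and Skil, the close relative of Ski, at 0.35 (edgeR adjusted p = 0.992 and 0.237). Of 12 other ligands of the family and their antagonists, 7 were tested and none passed in edgeR, DESeq2 or limma-voom. At an unadjusted p under 0.05 there were 0 in edgeR and DESeq2 and 1 in limma-voom. Without CON 5 edgeR called 1 of 8 tested, and without CON 1 and CON 2 it called 1 of 11. Their most abundant genes, Bmp2 and Bmp7, were at 0.29 and 0.30 (edgeR adjusted p = 0.844 and 0.770).

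Of 15 genes that Smads switch on in many cell types, 6 were higher in MIA and none was lower, with a median log2 fold change of 0.73. Id3 and Id1, inhibitors of helix-loop-helix transcription factors and targets of the bone morphogenetic protein branch above all, were higher by 0.82 and 0.78 (edgeR adjusted p = 0.00269 and 0.00858). Col1a1, a collagen of fibroblasts, was higher by 0.53 and the transcription factor gene Bhlhe40 by 1.54 (edgeR adjusted p = 0.0095 and 0.0175). The remaining 2 were Ccn2 and Timp1. The count was 3 with all 13 libraries and 1 with CON 1 and CON 2 left out of these. In each of these settings 8 genes had an unadjusted edgeR p under 0.05, in either direction. In the retained libraries without CON 1 and CON 2, 7 were higher and 2 lower. Col1a1 also stands in the list of mural and fibroblast genes, and the part of other cells' RNA in these 6 calls was not tested. The most abundant, Junb and Rhob, which also answer to tissue dissociation, did not pass, and Junb was at 672 ± 85.1 CPM in MIA libraries and 650 ± 411 CPM in CON libraries. Without CON 1 and CON 2, Junb was lower in MIA by a log2 fold change of -0.50 (edgeR adjusted p = 0.00775), against 0.05 with them.

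Of 19 microglial genes that need TGF-beta in mice, 18 were lower in MIA libraries and none was higher, with a median log2 fold change of -0.50. Siglech, a microglial lectin, averaged 483 ± 50.9 CPM in MIA libraries and 752 ± 50.4 CPM in CON libraries, a log2 fold change of -0.64 (edgeR adjusted p = 0.000487). The complement gene C1qa was lower by 0.62, the phagocytic receptor gene Mertk by 0.53 and the growth factor receptor gene Csf1r by 0.55 on the log2 scale. Leaving out 1 library gave 11 to 19 lower genes, with 11 without MIA 5. Of the 19 genes 10 also stand in the microglial identity list, whose median was -0.57, so a loss of the TGF-beta programme and a lower share of microglial RNA cannot be told apart with this list. The count of lower genes was 16 without CON 1 and CON 2, 4 with all 13 libraries and 1 with these less CON 1 and CON 2. With all 13 libraries 18 of the 19 had an unadjusted edgeR p under 0.05, with a median of -0.37. With these less CON 1 and CON 2 there were 14, with a median of -0.28. The count of lower genes was 0 under scaling to microglial genes, where 1 gene was higher and the median was 0.05. That scaling sets the identity genes level, and 10 of the 19 are among them, so its result for this list was largely fixed beforehand. Of 9 genes that rise in microglia deprived of TGF-beta, none was higher and 1 was lower, with a median log2 fold change of -0.49. The count was 4 lower genes without CON 1 and without both CON 1 and CON 2, 2 without CON 3 or MIA 3, and 3 in DESeq2. The gene called with all 10 retained libraries was Apoe, a lipid carrier, with 6729 ± 399 CPM in MIA libraries and 11531 ± 1785 CPM in CON libraries (log2 fold change -0.78; edgeR adjusted p = 0.000481). The abundant Spp1, a secreted phosphoprotein, did not pass, at 2355 ± 809 CPM in MIA libraries and 3115 ± 1802 CPM in CON libraries. Both sets, of genes that need the pathway and genes that rise without it, had medians below 0 in the MIA libraries. The microglial identity genes did too, at -0.57. Under scaling to microglial genes none of the 9 genes that rise without the pathway was called, and their median was 0.11. The part of a lower share of microglial RNA in the median of these 9 genes was not tested.

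**Figure D5:**
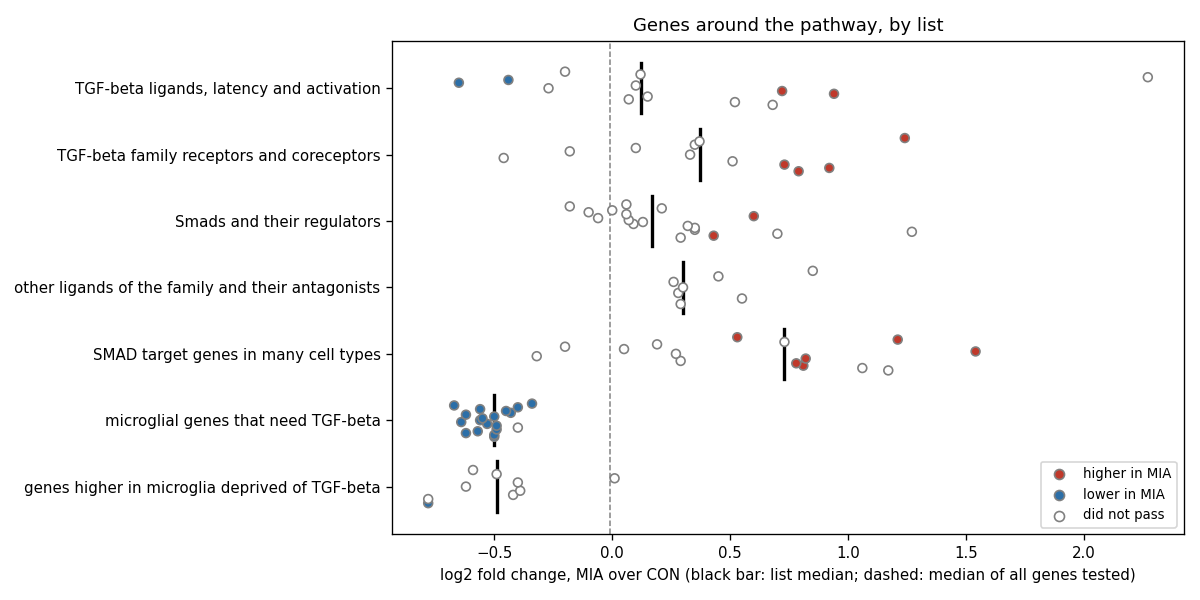
Log2 fold change of MIA over CON (horizontal axis) of every tested gene of 7 lists around the pathway, 1 point per gene, filled where the edgeR adjusted p was under 0.05, with the list median as a black bar and the median of all genes, -0.01, as a dashed line. Microglial genes that need TGF-beta and genes that rise without it both lie mostly left of that line, with medians of -0.50 and -0.49.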

How the data were processed

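The deposited file is 1 table with 13 libraries of expected counts as the authors estimated them, with no scaling between libraries. Tools named in the submitters' processing notes are STAR, RSEM and DESeq2, with neither role nor version. Per the labels' protocols, a modified Smart-Seq2 method without strand information was used. The authors' genome build and annotation release are not stated. Of nonzero values 20.6% were not whole, and all were rounded. Symbols and exon lengths came from GENCODE M21 for 55141 of 55487 genes. The 5 MIA and 5 CON retained libraries were compared by the quasi-likelihood test of edgeR 4.0.16 in R 4.3.3, fitted robustly with group alone after filterByExpr and TMM, with Benjamini-Hochberg adjustment over 15511 genes and a threshold of 0.05. CPM values are TMM-scaled over 13 libraries. Ratios add 2 counts to each gene and use 2-sided exact permutation tests. A count of 3 corresponds to 0.0875 to 0.117 CPM, a limit that covers counting error only. One transcript, CT010467.1, took 14.59 to 18.77% of counts.

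The members and lists were chosen with earlier results of these data known. All members are named, and of each list the called genes (where more than 4 were called, the 4 with the smallest adjusted p per direction) and the 2 most abundant genes. One gene that the rule takes is not reported here. Ccn2 and Timp1 are named beyond this rule, after their values were seen. Alternatives were each library left out, all 13 libraries, CON 1 and CON 2 left out, a replicate block, 4 other scalings, 2 other filters, a fit that was not robust, DESeq2 1.42.0 and limma-voom (limma 3.58.1). On simulated data of 5 against 5 libraries and 15180 genes, edgeR recovered 17.9% of genes changed 1.5-fold, 47.8% changed 2-fold and 83.3% changed 4-fold. Of its 103 calls 3.88% were false. A far smaller share of genes was changed in the simulation than the 10.3% called in these data, so its recovery need not hold for them.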

Additional observations from a re-analysis of the deposited data

Results flagged for a closer look

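In 28 groups of 5 libraries, covering the 10 members and the 4 ratios in MIA and in CON, 3 libraries stood far from the rest of their group, with a gap to the nearest library of more than 0.71 of the group's range. Chance flags about 1 in 20 such groups. Nrros in MIA 1, at 327 CPM, lay above the other 4 MIA libraries. Itgb8 in MIA 2, at 6.28 CPM, lay above the other 4 MIA libraries. The log2 ratio of Smad2 to Smad3 in CON 1, at -1.22, lay below the other 4 CON libraries.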

How the results depend on the processing

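Values are log2 fold changes of MIA over CON unless said otherwise, and the cause of a change was not tested where no value shows it. Both member calls, Nrros and Tgfbr1, were kept under DESeq2, RLE and upper-quartile scaling, both other filters and the fit that was not robust. Leaving out 1 library at a time gave 0 to 2 called members, against 2, and 1037 to 2263 called genes, against 1602. With all 13 libraries 1 member and 659 genes were called, without CON 1 and CON 2 1 member, and with all 13 less CON 1 and CON 2 1 member and 90 genes. The member kept in these 3 was Nrros. Limma-voom called 1 member, Nrros, and total-count scaling 2, Nrros and Smad3. Microglial scaling, which sets the microglial genes level and so moves the median of all genes to 0.56, called 6 members and 8304 genes.

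The titles give MIA and CON libraries the same numbers, but same-numbered libraries deviated together with correlations of 0.06 to 0.36, and 2 of the 5 MIA libraries correlated best with their own number. With a replicate block 1 member was called, Tgfbr1 (-0.45; edgeR adjusted p = 0.0238), while Nrros had an edgeR adjusted p of 0.0586, and Rhob turned to 0.04. The number of called genes was 1524 with the block.

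Without CON 1 and CON 2 the sign changed for Tgfb1 (-0.14), Itgb8 (0.25), Smad2 (-0.01), Itgb1 (-0.03), Bmp2 (-0.31), Junb (-0.50), Tdrd7 (-0.11), Gspt1 (-0.21), Rad23b (-0.20) and Ankrd13a (-0.11). In all 13 libraries less these, the values were -0.15 for Tgfb1, 0.18 for Itgb8, -0.06 for Smad2, -0.05 for Itgb1, -0.13 for Bmp2, -0.39 for Junb, -0.14 for Tdrd7, -0.16 for Gspt1, -0.24 for Rad23b and -0.14 for Ankrd13a. With all 13 libraries Smad2 was at -0.02 and Rad23b at -0.04. Microglial scaling turned Nrros (0.21), Itgb8 (0.23), Tgfbr1 (0.09), Tgfbr2 (0.51), Ski (0.42), Itgb5 (0.12), Rhob (0.37), Mertk (0.04), Csf1r (0.01), Spp1 (0.12), Serinc3 (0.10), Icosl (0.07), Adam17 (0.27), Zbtb17 (0.54) and Nelfb (0.52). Total-count scaling turned Tgfbr2 (0.01), Zbtb17 (0.04) and Nelfb (0.02), the strict filter Zbtb17 (0.02) and limma-voom Rhob (0.06). Over the fits without 1 library the values crossed 0 for Tgfb1 (-0.01 to 0.27), Itgb8 (-0.51 to 0.29), Smad2 (-0.01 to 0.09), Junb (-0.18 to 0.26), Rhob (-0.44 to 0.18), Gspt1 (-0.08 to 0.18), Rad23b (-0.12 to 0.23), Ankrd13a (-0.03 to 0.17), Zbtb17 (-0.08 to 0.04), Nelfb (-0.07 to 0.03) and Usp4 (-0.04 to 0.04, at 0.00 with all 10 libraries). None of the 4 ratios passed or changed sign when 1 library or CON 1 and CON 2 were left out, with all 13 libraries, or with 0.5 counts added. With 1 library left out, the lowest adjusted exact permutation p was 0.0635, for Smad2 over Smad3. With 1 library or CON 1 and CON 2 left out, too few libraries remain for a single ratio to pass after adjustment over 4 ratios. The missing calls there carry no weight. The paired test of the ratios could not pass, since 5 pairs allow no p below 0.0625, the value of Tgfbr2 over Tgfbr1. Smad7, Itgb8, Tgfb1 and Smad4 had the lowest counts of the members.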
